A study of Homo sapiens with 6 samples.

Results

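The subject is the machinery that transcribes nuclear genes: the subunits of RNA polymerases I, II and III, the general transcription factors, the TATA-binding protein associated factors (TAFs) and the Mediator complex. Members were taken by symbol, as every gene of either deposited table whose name begins with POLR1, POLR2 or POLR3 and a letter, with GTF2 or GTF3, or with TAF or MED and a digit. This gave 102 genes of 10779 in the tables together: 30 polymerase subunits, 21 general factors, 21 TAFs and 30 Mediator subunits. Of these, 87 have a translational efficiency (of 8121 genes), 98 have a ribosome occupancy along the transcript (of 9570 transcripts), and 83 have both.

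The libraries come from HEK293, a human embryonic kidney cell line, treated with a Control siRNA. For ribosome profiling the cells were also exposed briefly to cycloheximide, which arrests elongating ribosomes, before lysis, and its part in the codon profiles was not tested. Ribosome-protected fragments (RPFs), the stretches of mRNA that a ribosome shields from RNase I, were sequenced in 3 libraries, and total RNA taken from the lysates in another 3. Translational efficiency is the deposited ratio of RPF to total RNA, given for each of 3 replicates. Since all libraries share a condition, each gene was compared with the median gene, whose ratio was 0.383. The labels do not say whether the replicates are separate cultures, so the p-values below measure the spread between these libraries, which may be technical. Pearson's r between replicates over all genes ran from 0.987 to 0.990 on the log2 scale, a description across genes. All 5 genes listed as markers of HEK293 (VIM, KRT8, KRT18, NEFL and NEFM) are in the efficiency table, and the markers of blood (PTPRC), liver (ALB), muscle (DES) and B cells (CD79A) are not.

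As background, RNA polymerase I makes the large ribosomal RNA precursor, polymerase II makes mRNA, and polymerase III makes tRNA and other small RNAs. A set of small subunits is shared by all of them. TFIID, formed by the TATA-binding protein and the TAFs, recognises core promoters, TFIIA, TFIIB, TFIIE, TFIIF and TFIIH complete the polymerase II initiation complex, SL1 and TFIIIC serve polymerases I and III, and Mediator, built of head, middle and tail modules on the MED14 scaffold with a detachable kinase module, links transcription factors to polymerase II. Subunits of a complex are generally needed in fixed proportion, while the mRNAs that encode them are separate.

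The sequences around the start codons of members at the extremes of translational efficiency are shown first, 5′ to 3′, with the start codon in capitals, as read from GENCODE transcripts on GRCh37 (the same build as hg19).
GTF2H5: ttctgagaaaacATGgtcaacgtc
MED10: cgggccgaggcgATGgcggagaag
MED16: gtgactgccctcATGtgtgatttg
TAF4B: agcccctgggggATGcccgccggc
They lie at chr6:158591524-158591547 on the plus strand, chr5:6378585-6378608 on the minus strand, chr19:891120-891143 on the minus strand and chr18:23806886-23806909 on the plus strand. The first pair belongs to the highly translated small subunits of TFIIH and Mediator, the second to poorly translated large subunits of Mediator and TFIID. A purine at position −3 from the start codon was found in 82 of 95 members matched to GENCODE (86.3%), against 85.9% of 8693 matched transcripts. A purine at −3 together with G at +4 was found in 51.6% of the members and in 46.2% of all. No test was made on these shares.

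Translational efficiency spread widely among the members. By limma, 47 of 87 lay above the median gene and 33 below it (Benjamini-Hochberg adjusted p under 0.05 over all genes), and 7 did not differ detectably. Over all genes 89.3% were called, 44.7% above and 44.6% below. The median of the members' means was 0.478, and that of all genes was 0.385. The general factors had the highest group median, 0.895, with 12 of 17 above. The polymerase subunits followed at 0.459, with 14 of 26 above and 9 below, then the TAFs at 0.452, with 9 of 17 above and 7 below. Mediator was lowest at 0.316, with 12 of 27 above and 13 below. Small proteins stood higher: across the 83 members with both measures, efficiency and the number of codons had Spearman's rho −0.45, and across all 6912 genes with both −0.26, each a description across genes that share libraries. The median efficiency was 0.786 for the 18 members of 150 codons or fewer and 0.396 for the 65 longer members. Over all genes with both measures it was 0.894 for 585 genes of 150 codons or fewer and 0.370 for 6327 longer ones.

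**Figure D1:**
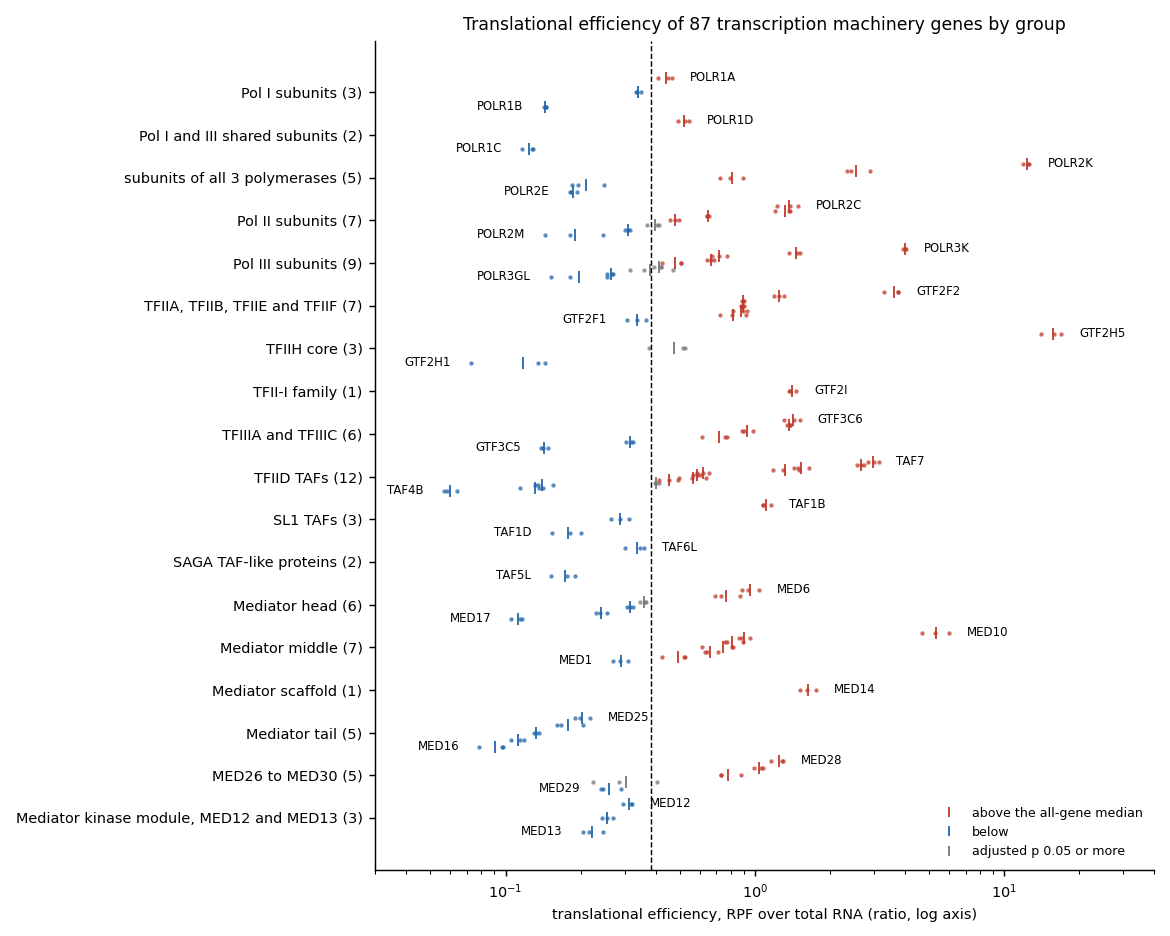
Translational efficiency (ratio of RPF to total RNA, log axis) of the 87 members by group, with points for the 3 replicates, a tick for their mean and the all-gene median of 0.383 as a dashed line; the highest and lowest member of each group is named. All 5 Mediator tail and all 3 kinase module genes sit left of the line, while GTF2H5 and POLR2K stand above a ratio of 10.

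The subunits common to all 3 polymerases covered most of the members' range of efficiency. POLR2K, a small zinc-binding subunit of 59 codons with the stop codon, had ratios of 11.9, 12.6 and 12.5 in replicates 1 to 3, and POLR2L, the other very small subunit, had 2.34, 2.88 and 2.44. POLR2H had 0.724, 0.899 and 0.797. POLR2E, which lies at the jaw of the enzyme, had only 0.181, 0.184 and 0.194, and POLR2F had 0.247, 0.185 and 0.196. The ratios of these genes overlapped in no replicate except those of POLR2E and POLR2F. Against the median gene the log2 difference was 4.97 ± 0.05 (SE) for POLR2K and −1.01 ± 0.05 for POLR2E, with limma adjusted p of 9.0e-07 and 2.3e-05. The means of the 5 genes differed 66.3-fold from highest to lowest.

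The same subunits were closer in the number of reads. Each occupancy value is a sum of whole multiples of 3 steps, each step being the worth of 1 RPF read in 1 replicate, and from these steps whole in-frame reads were recovered for all 98 members (447 to 31853 reads per CDS, median 4136.5). Reads per codon do not depend on the mRNA level used as denominator. For the 5 shared subunits they ran only from 47.95 (POLR2E) to 111 (POLR2L), with 50.3 for POLR2F, 63.8 for POLR2H and 106 for POLR2K, a 2.32-fold spread against 66.3-fold in efficiency. Behind these values are 4312, 3393 and 2413 reads in the 3 read series of POLR2E and 2695, 2116 and 1471 in those of POLR2K. A read series holds the reads of 1 replicate, but which replicate it is cannot be read from the file. Occupancy per codon, which the authors divided by library size and transcript abundance, ran from 0.0984 (POLR2H) to 0.199 (POLR2K) in these 5 genes. By that measure POLR2E (0.0985) and POLR2F (0.160), below the median in efficiency, were above 82.9% and 92.9% of transcripts. Why it differs from efficiency was not tested.

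All 5 shared subunits had more reads per codon than any other POLR gene measured here. Among the polymerase II subunits these values were 16.2 for POLR2A and 26.6 for POLR2B, which form the catalytic centre, 22.2 for POLR2C, 20.6 for POLR2D, 32.3 for POLR2G and 35.3 for POLR2I. POLR2J, POLR2J2 and POLR2J3, near-identical copies, showed 44.9, 39.8 and 41.5, but 87.8%, 89.4% and 100% of their 28-base stretches also occur in a gene elsewhere, so their reads cannot be assigned and their values are uncertain. POLR2M, whose symbol marks a regulator attached to polymerase II rather than a core subunit, had 1.93. POLR1C and POLR1D, the assembly subunits shared by polymerases I and III, had 13.9 and 29.8, the polymerase I subunits POLR1B and POLR1E 8.09 and 12.8, and the polymerase III subunits from 4.44 (POLR3E) to 31.2 (POLR3K). In 10 members over 25% of the 28-base stretches occur elsewhere: GTF2H2, GTF2IRD2, GTF3C6, MED27, POLR2J, POLR2J2, POLR2J3, POLR2M, POLR3G and TAF9B. The all-transcript median was 3.83 reads per codon over 9456 transcripts whose steps could be solved.

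**Figure D2:**
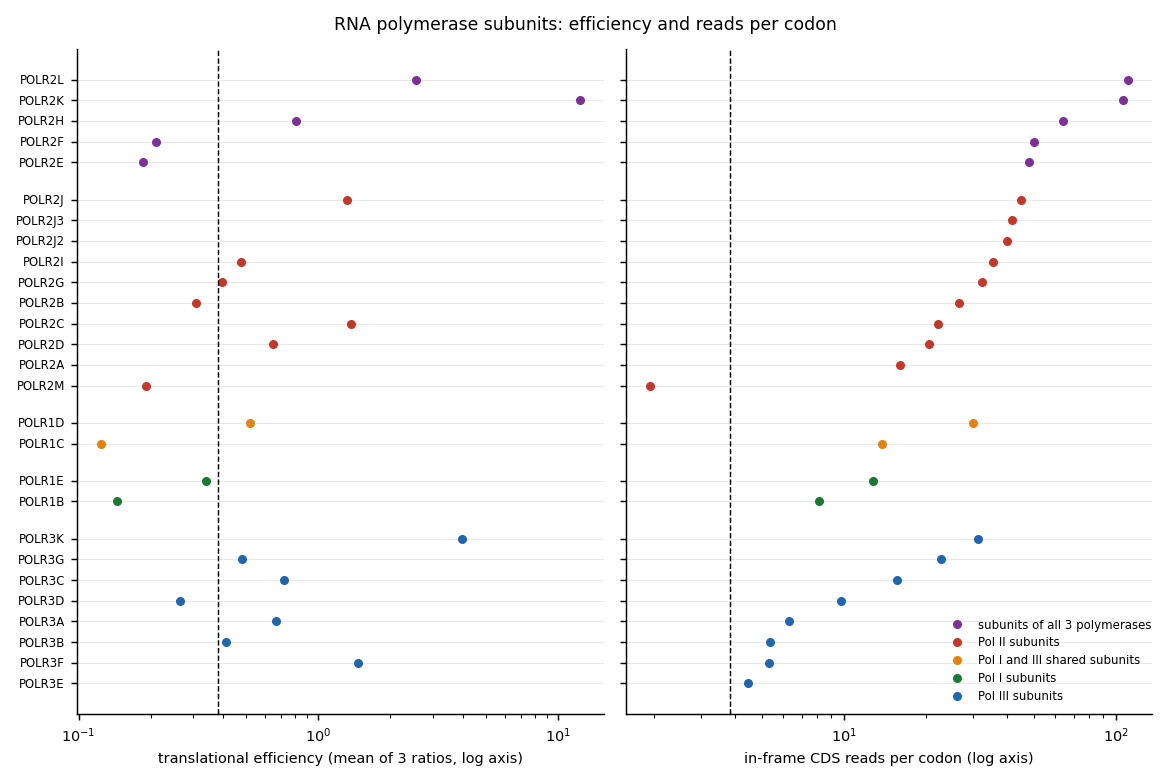
RNA polymerase subunits in rows, with the mean translational efficiency of 3 replicates on the left and in-frame CDS reads per codon with replicates combined on the right (log axes; dashed lines, medians over all genes, 0.383, and all transcripts, 3.83). The 5 subunits of all 3 polymerases span 66.3-fold on the left and 2.32-fold on the right; genes without an efficiency have a point on the right only.

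The catalytic subunits differed in efficiency within polymerases I and III as well as between enzymes. POLR3A, the largest subunit of polymerase III, had ratios of 0.644, 0.667 and 0.683, and its partner POLR3B had 0.393, 0.420 and 0.420. The largest subunit of polymerase I, POLR1A, had 0.466, 0.409 and 0.449, while POLR1B had 0.142, 0.146 and 0.146. POLR2B had 0.309, 0.315 and 0.303, and POLR2A has no efficiency here. The replicates of these 5 genes did not overlap except those of POLR1A with POLR3B. POLR1B (log2 difference −1.35 ± 0.05) and POLR2B (−0.30 ± 0.05) were below the median and POLR3A above it (0.78 ± 0.05), whereas POLR3B (0.10 ± 0.05, adjusted p = 0.13) did not pass the test. In reads per codon POLR3A (6.31) and POLR3B (5.36) were nearest to each other and below POLR1B (8.09). Occupancy per codon gave another order: 0.181 for POLR2A, 0.0537 for POLR2B, 0.0502 for POLR3B, 0.0456 for POLR3A and 0.0394 for POLR1B. By that measure POLR3A was not above POLR3B, and the reason was not tested.

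Among the other subunits, POLR3K, a small zinc-binding subunit of polymerase III, was highest in its group at 3.92, 4.01 and 4.04, and POLR3GL lowest at 0.181, 0.152 and 0.256. POLR3G and POLR3GL are alternative subunits of polymerase III, POLR3G being typical of stem and tumour cells. POLR3G had 0.506, 0.424 and 0.505, above POLR3GL in each replicate, and 33.5% of its 28-base stretches occur elsewhere. POLR1D had a mean of 0.520 and POLR1C 0.124. In polymerase II the highest was POLR2C at 1.37 ± 0.13 (SD, n = 3) and the lowest POLR2M at 0.190 ± 0.051, whose replicates ran from 0.144 to 0.245.

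Of the genes of TFIIA, TFIIB, TFIIE and TFIIF, 6 of 7 were above the median. GTF2F2, the small subunit of TFIIF, had ratios of 3.76, 3.75 and 3.30, while its large partner GTF2F1 had 0.366, 0.307 and 0.338, a difference of 10.7-fold in the means. In reads per codon the same pair had 23.7 and 12.4. The subunits of TFIIA (GTF2A1 0.880, GTF2A2 1.25), TFIIB (GTF2B 0.895) and TFIIE (GTF2E1 0.819, GTF2E2 0.896) were close to each other in mean efficiency. In reads per codon they were not: GTF2A2 had 49.3 and GTF2E1 4.11.

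TFIIH held both ends of the general factors. GTF2H5, its smallest subunit at 72 codons, needed for stability of the complex in DNA repair, had ratios of 14.1, 15.8 and 16.9, the highest of all members (log2 difference 5.31 ± 0.07, adjusted p = 1.0e-06). GTF2H1 had 0.135, 0.0726 and 0.144 and GTF2H3 0.523, 0.377 and 0.515, so that replicate 2 was low in both. GTF2H1 was below the median and GTF2H3 did not pass (adjusted p = 0.057). In reads per codon GTF2H5 had 63.1, GTF2H3 24.0, GTF2H4 4.11 and GTF2H1 4.58. GTF2H2 shares 95.2% of its 28-base stretches with copies elsewhere, and its 58.6 reads per codon are uncertain.

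Of the 6 subunits of TFIIIC measured, 4 were above the median and 2 below, from GTF3C6 at 1.42 ± 0.10 (SD, n = 3) to GTF3C5 at 0.143 ± 0.005. Their reads per codon stayed between 7.92 and 28.7, a 3.63-fold spread against 9.94-fold in efficiency. GTF3C6, at the top of both, shares 49.8% of its 28-base stretches with a copy elsewhere. It was not at the top in occupancy per codon, with 0.0322 against 0.133 for GTF3C4 and an all-transcript median of 0.0450. In the TFII-I family GTF2I was above the median at 1.41 ± 0.05. Efficiency is given by gene, and the GTF2I transcript with occupancy has 275 codons. GTF2IRD1 and GTF2IRD2 have no efficiency here, and 100% of the 28-base stretches of the 109-codon GTF2IRD2 transcript occur elsewhere.

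TFIID showed the widest spread of efficiency after TFIIH and the polymerases' shared subunits. Of its 12 TAFs measured, 8 were above the median and 3 below. TAF7, which binds TAF1 in TFIID, was highest at 3.13, 2.83 and 2.997, followed by TAF9B at 2.56, 2.75 and 2.65 and the histone-fold subunit TAF13 at 1.44, 1.49 and 1.65. TAF4B, a cell-type restricted relative of TAF4, was the lowest of all members at 0.0566, 0.0640 and 0.0583 (log2 difference −2.50 ± 0.06, adjusted p = 2.1e-06). TAF1, the largest TAF, had 0.131, 0.135 and 0.155 and TAF8 0.141, 0.114 and 0.137. The 12 means differed 50.1-fold and the reads per codon 29.7-fold. TAF7 (32.4) and TAF4B (1.09) held both ends on each scale.

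Among the paralogs, TAF5 of TFIID had 0.585, 0.656 and 0.621 and its SAGA counterpart TAF5L 0.191, 0.152 and 0.176. TAF6L, another SAGA subunit, had 0.346, 0.360 and 0.302, and TAF6 has no efficiency here. TAF9 also has none, and its occupancy per codon was 0.0487 against 0.119 for TAF9B. In reads per codon TAF9 had 30.7 and TAF9B 19.4; of their 28-base stretches 22.5% and 25.9% occur elsewhere. Of the SL1 subunits, which serve polymerase I, TAF1B was above the median at 1.11 ± 0.05 (SD, n = 3), with TAF1A (0.288 ± 0.023) and TAF1D (0.179 ± 0.024) below. TAF15, an RNA-binding protein, has occupancy only, with 49.0 reads per codon.

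Mediator is taken by module. All 5 tail subunits were below the median, from MED16 at 0.0966, 0.0785 and 0.0980 to MED25 at 0.190, 0.218 and 0.199, with MED15, MED23 and MED24 between. The 3 kinase module genes were also all below, MED12 at 0.320, 0.295 and 0.319, MED13 at 0.246, 0.204 and 0.216 and MED13L at 0.270, 0.243 and 0.256. In the middle module 6 of 7 were above, led by MED10 at 5.28, 4.66 and 6.01, with MED1, by far its longest member at 1582 codons, below at 0.288, 0.310 and 0.269. MED14, the scaffold, was above at 1.75, 1.51 and 1.61. In the head MED6 and MED11 were above and MED8, MED17 and MED20 below, from MED6 at 0.952 ± 0.076 to MED17 at 0.112 ± 0.006. Of MED26 to MED30, 3 were above, led by MED28 at 1.25 ± 0.07, and MED29 was below at 0.259 ± 0.027.

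The tail subunits were alike in reads per codon as well, from 3.23 (MED16) to 9.53 (MED24), and the scaffold MED14 had 6.64 with a mean efficiency of 1.63, against 0.0910 for MED16. The head ran from 3.60 (MED20) to 31.2 (MED6) and the middle from 3.58 (MED9) to 28.9 (MED10). The kinase module genes had 3.53 (MED12), 1.97 (MED13), 1.01 (MED13L) and 0.425 (MED12L). MED12L, the second form of MED12, had 913 reads over 2146 codons against 7698 over 2178 codons for MED12. In occupancy per codon the tail fell on both sides of the all-transcript median of 0.0450. MED15 (0.0775) and MED25 (0.0539) were above it, and MED16 (0.0275), MED23 (0.0344) and MED24 (0.0394) below. MED12 (0.0705) was also above it, and MED13 (0.0114), MED13L (0.0115) and MED12L (0.0146) were below. MED17, lowest of the head in efficiency, had 0.0992, and MED14 had 0.0876.

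Of 29 partner genes that the symbol rule leaves out, 13 were above the median, 14 below and 2 neither. The polymerase subunits TWISTNB, CRCP and CD3EAP ran from 1.51 (TWISTNB) to 0.255 (CD3EAP), with 2 above and 1 below. The kinase and helicase subunits of TFIIH ran from 0.602 (MNAT1) to 0.0789 (ERCC3, the translocase), with 2 above and 2 below. Of the Mediator kinase itself, CDK8 had 0.505 and was above, whereas CCNC, its cyclin, had 0.0965 and was below, as was CDK19. The TATA-binding protein, BRF, SNAPC and polymerase I factors ran from 2.88 (SNAPC1) to 0.204 (SNAPC4), with 2 of 8 above and 5 below. The elongation and assembly factors ran from 5.81 (RPAP2, an assembly factor and phosphatase of polymerase II) to 0.134 (NELFA), with 6 of 11 above and 4 below.

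Occupancy per codon, which the authors divided by library size and by the transcript's abundance (TPM), had a median of 0.0546 over the 98 members and 0.0450 over all transcripts. The column combines the replicates, so it carries no replicate error and was not tested. POLR2J3 (2.56), GTF2H2 (1.67) and POLR2J2 (0.965) were highest, all on sequence shared with other genes, followed by GTF2H5 (0.924). TAF4B was lowest, at 0.00782. Across the 83 members with both measures, occupancy and efficiency had Spearman's rho 0.62, against 0.69 over 6912 genes, as a description. POLR2K, 31.4 times the median gene in efficiency (on the log2(ratio + 0.01) scale), had an occupancy of 0.199, above 95.1% of transcripts.

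The ends of the coding sequence were compared over windows of 75 codons in the 77 members of at least 150 codons. The first window held more than 2 times the occupancy of the last in 24 members (31.2%; 20.3% of 8851 transcripts), and the reverse held in 14 (18.2%; 22.6%). These counts depend on the window: over windows of 50 codons they were 22 and 22 of the 77 members (28.6% each), against 23.1% and 28.5% of all transcripts. With windows of 75 codons, the ratio passed that limit in each of the 3 read series in 21 of the 24 and 13 of the 14 members. Mediator had 10 of 23 members heavy at the start, among them 4 of the 5 tail subunits: MED24 at a ratio of 6.88, MED25 at 4.62, MED16 at 4.35 and MED15 at 3.34. The remaining tail subunit, MED23, had 1.74. Median efficiency was 0.310 for the 16 start-heavy members that have one and 0.472 for the 37 even ones; over all genes it was 0.295 and 0.385.

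MED22, a head subunit, was the most uneven at a ratio of 23.5, from 802 reads at the start and 35 at the end. Its occupancy was 0.0606 per codon over codons 1 to 138 and 0.000274 over codons 139 to 201, where 2 of 63 codons had a read. In GENCODE, 8 coding isoforms of MED22 are annotated, and from codon 139 on 2 of them hold the codons in frame. TAF6 had a ratio of 10.1 (219 and 23 reads), which was 8.45, 8 and 38 in the 3 read series, the last resting on few reads. The last 20% of its CDS held 2.41% of its occupancy, and no read fell on codons 1 to 30. The first 37 codons are in frame in 1 of 42 annotated coding isoforms of TAF6, while all codons of the last window are in 39. What part isoforms have in these profiles was not tested.

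POLR2A, with a ratio of 6.71 (7.29, 7.93 and 5.59 in the read series), was thin at its end. Each 5% of its length held from 2.15% to 12.1% of the occupancy up to 75% of the CDS, and from 0.292% to 0.726% after that. Codons 1578 to 1971 held 1.80% of its occupancy, at 0.0163 per codon against 0.222 before them, and 166 of those 394 codons had a read. This end includes the C-terminal domain, the array of repeated heptads that is phosphorylated during transcription; what part its repeated sequence has in the low count was not tested. MED24 had 1579 reads in its first 75 codons and 231 in its last.

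TAF4B (ratio 0.0511), TAF10 (0.0547) and TAF5 (0.124) were lowest. TAF4B had no read on its first 48 codons, and 7 reads in the first window against 130 in the last. TAF10, a histone-fold subunit of TFIID and SAGA, had 4.87% of its occupancy on codons 1 to 110 and 95.1% on codons 111 to 219, with 37 and 607 reads in the end windows. TAF5 had 66 and 543. In the 3 read series the ratios were 0.069, 0.0417 and 0.0417 for TAF4B, 0.0906, 0.0585 and 0.0135 for TAF10 and 0.110, 0.126 and 0.139 for TAF5. Both annotated coding isoforms of TAF4B and of TAF5 hold every codon of the end windows in frame, and of TAF10, codons 43 to 129 are in 1 of 2. The limits for these profiles were set after the values were seen.

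**Figure D3:**
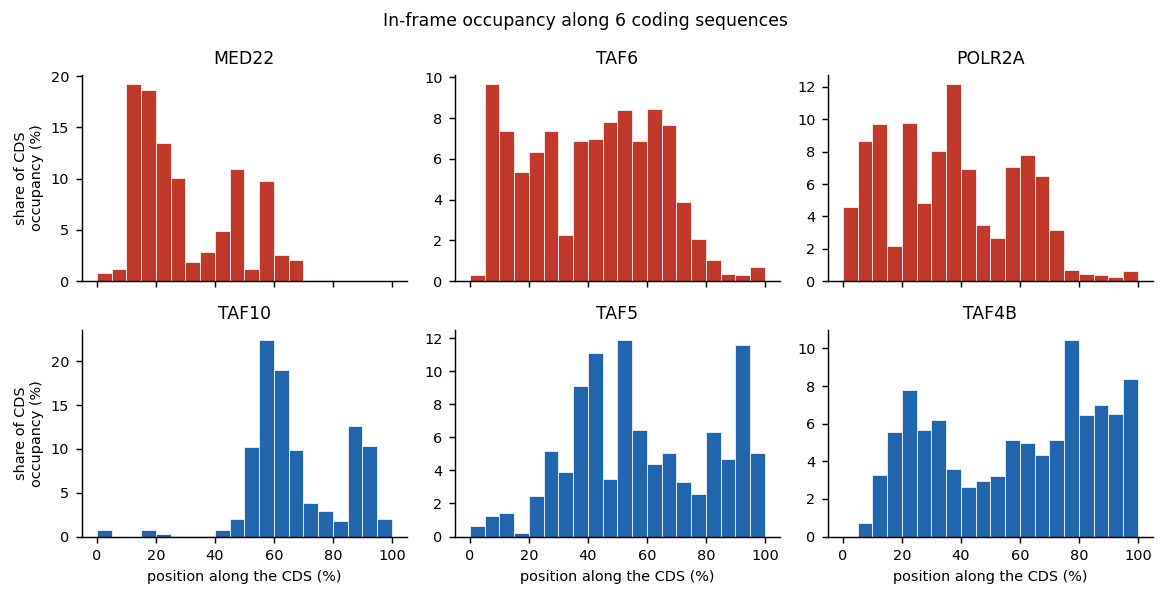
Share of in-frame CDS occupancy (%) in 20 equal bins along the CDS, replicates combined, for 3 members heavy at the start (red: MED22, TAF6, POLR2A) and 3 heavy at the end (blue: TAF10, TAF5, TAF4B). MED22 is empty past 80% of its length, POLR2A is thin in its last 20%, with 1.80% of the occupancy, and TAF10 has 4.87% on its first 110 of 219 codons.

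Single codons could hold much of a gene's occupancy. In 48 of 98 members (49.0%) a codon held over 5% of the total, as in 49.3% of all transcripts. Among CDSs of 200 codons or more the share was 31.5% (23 of 73 members) against 41.4% of 8205 transcripts. The members were also more deeply read, with a median of 10.0 reads per codon against 3.83 over all transcripts. What part depth has in these shares was not tested. The 3 highest shares belonged to GTF2A1, TAF9 and MED31. The sequences there are shown 5′ to 3′ on the coding strand, with the codon of highest occupancy in capitals, since the first pair share a feature that the symbol rule did not use.
GTF2A1: gaagatgaagatGAAgaagaagactat
TAF9: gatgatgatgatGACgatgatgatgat
MED31: aataacacatcgGGAaaatgaaaaact
They lie on the minus strand at chr14:81658923-81658949, chr5:68660791-68660817 and chr17:6547781-6547807 (GRCh37), each within an exon; the last sequence runs through the stop codon into the 3′UTR.

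In GTF2A1, the precursor of the TFIIA large subunits, codon 248 of 338 held 34.6% of the occupancy, at 33.6 per codon against a median codon of 0.0260. The share was 34.4%, 34.2% and 35.2% in the 3 read series, with 2261 reads. Codon 247 had 21.3, and both together held 56.6%. In TAF9, codon 254 of 265 held 32.9% (31.6%, 35.3% and 31.8%, 2669 reads), and with codon 253 it held 52.4%. Both peaks lie in runs of codons that begin with GA and encode acidic residues: 16 of 21 codons around the GTF2A1 peak and 13 of 21 around the TAF9 peak begin so. Over all members this was not the pattern, since the highest codon began with GA in 7 of 95 (7.37%), while 11.96% of all their codons do.

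These acidic runs have near copies elsewhere. The 28 bases under the TAF9 peak, placed with the authors' offset of 13 nucleotides, occur exactly in no other gene of GENCODE, but with at most 1 mismatch in 8 other genes and with at most 2 in 38. For GTF2A1 these counts were 0 and 2, and for MED31 0 and 0. What part reads from other genes have in the peaks was not tested. The peak of MED31, a middle subunit, was at codon 130 of 132, 2 codons before the stop codon, with 21.3% of the occupancy (21.8%, 17.4% and 24.2%, 275 reads). Just past these came MED29 at codon 112 with 17.1% and, at the start codon itself, TAF1D with 16.3% and POLR2F with 15.6%. The start codon was the highest codon in 3 members.

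**Figure D4:**
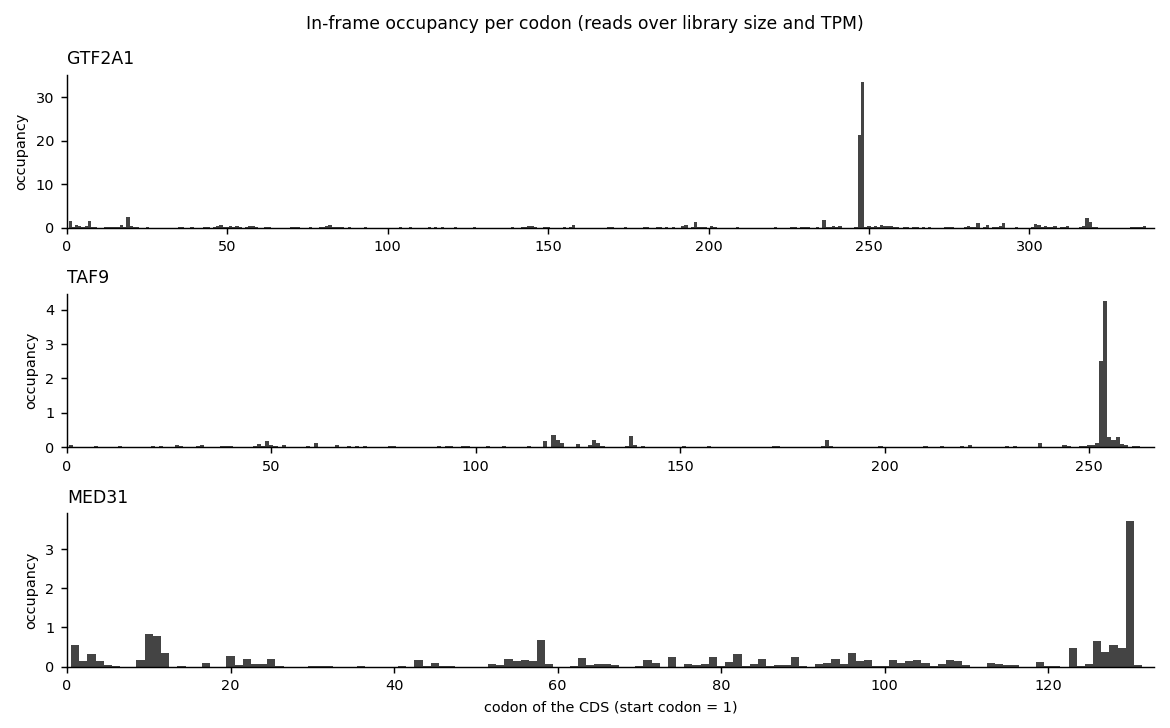
In-frame occupancy per codon (RPF reads over library size and TPM, replicates combined) along the CDS of GTF2A1, TAF9 and MED31. Codon 248 of GTF2A1 holds 34.6%, codon 254 of TAF9 32.9% and codon 130 of MED31 21.3% of the occupancy of the gene.

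In-frame occupancy in the 5′UTR was above 10% of that of the CDS, per codon, in 17 of 98 members (17.3%), against 28.2% of all transcripts. Over the last 17 codons of the 5′UTR alone the order was the other way, with 30 of 80 members (37.5%) against 31.8% of 8534 transcripts. Over the whole 5′UTR it was above 10% in each of the 3 read series in 13 of them, and 4 rested on fewer than 12 reads. The median was 2.96% over the members and 2.86% over all transcripts. The highest were GTF2A1 at 67.0%, MED13L at 44.1% and POLR3B at 40.02%. MED13L had 7 reads there, 6 of them on 1 codon, so its value is not firm.

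GTF2A1 had 678 reads in 53 codons of 5′UTR (61.9%, 67.4% and 72.0% of the CDS level in the read series). Another GENCODE isoform annotates the 29 codons next to the start codon as CDS in the same frame. Of the 5′UTR occupancy, 99.0% lay there, at 0.348 per codon against a mean of 0.287 in the CDS. That mean is raised by the peak, since codon 248 and the codon before it held 56.6% of the CDS occupancy. The median CDS codon had 0.0260. The shares of the CDS level given for GTF2A1 are relative to the same mean. In POLR3B the 34 codons before the start codon are CDS in another isoform, and all of its 164 reads (100% of the occupancy) lay there, at 0.0455 against 0.0502 in the CDS. In both the start codon of the deposited transcript therefore lies inside a longer annotated reading frame. POLR2H had the same arrangement over 11 codons, with 99.0% of its 5′UTR occupancy there. The start codons of the former pair are shown with the bases before them.
GTF2A1: gaacaagtactgATGgaactaaaa
POLR3B: ataaagaagataATGaaagccaat
They lie at chr14:81682760-81682783 on the minus strand and chr12:106760436-106760459 on the plus strand.

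**Figure D5:**
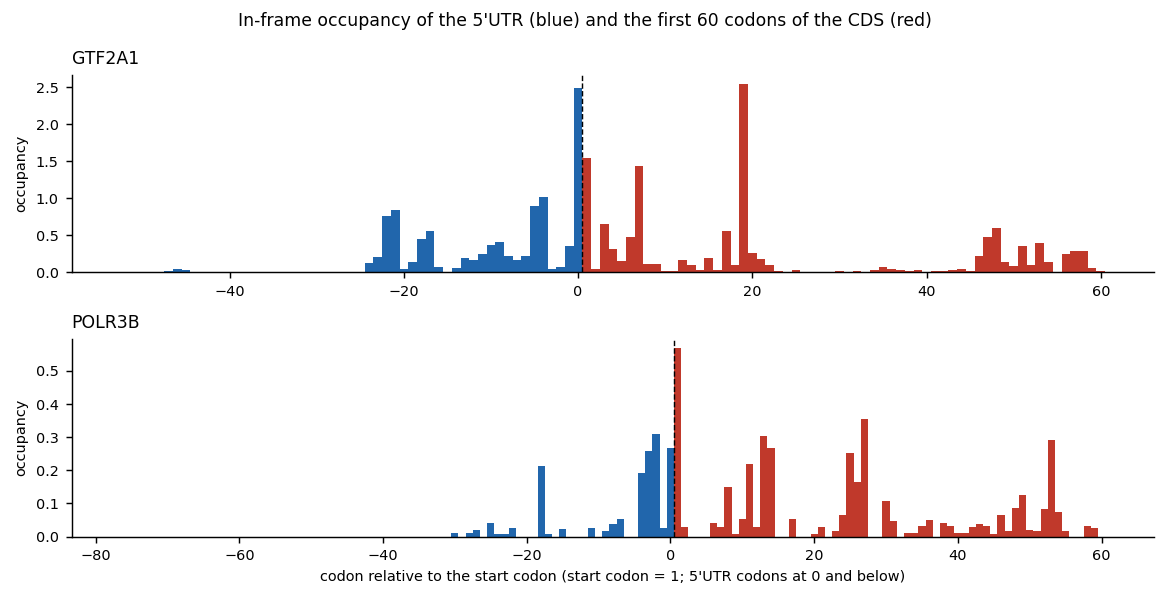
In-frame occupancy per codon of the 5′UTR (blue) and the first 60 codons of the CDS (red) of GTF2A1 and POLR3B, replicates combined, with the deposited start codon at 1 after the dashed line. In GTF2A1 99.0% and in POLR3B 100% of the 5′UTR occupancy lies on the 29 and 34 codons next to the start codon that another isoform holds as CDS.

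In other members the 5′UTR reads were gathered on a codon. GTF2A2, the small TFIIA subunit, had 536 reads in its 5′UTR, of which 344 (64.2%) fell on the 14th codon before the start codon. TAF2 had 97 reads, 51 of them on the 84th codon before the start codon. TAF9 had 447 reads over 38 of its 73 5′UTR codons, with at most 15.2% on a codon. GTF2H4 (31.0%, 84 reads) and GTF2F1 (17.3%, 201 reads) were also above 10%. In all, 9 members have 5′UTR codons that another isoform annotates as CDS in frame. Apart from GTF2A1, POLR3B and POLR2H these codons held 50.8% of the 5′UTR occupancy in GTF2H3 and at most 20.5% in the other 5.

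Occupancy in the 3′UTR was low. It was at most 1.35% of the CDS level per codon, in POLR2D, with 173 in-frame reads. The median was 0.0677% over the members and 0.0178% over all transcripts. POLR2J3 (1.14%, 183 reads, a gene whose CDS sequence is shared with other genes) and TAF1D (1.00%, 9 reads) came next. The members together had 968 in-frame reads in the 3′UTR, 5994 in the 5′UTR and 540546 in the CDS.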

How the data were processed

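RPF and total RNA libraries (3 each) were analysed from 2 deposited tables. The authors deposited translational efficiency as a ratio of RPF to total RNA per replicate; how it was scaled is not stated in the paper or the labels. They also deposited occupancy: in-frame RPF reads of 28 to 30 nt, without PCR duplicates, at each codon, over library size and TPM, with replicates combined. The submitters' processing notes name cutadapt 1.16, Bowtie 1.1.2, TopHat2 2.1.1, HTSeq 0.9.1 and hg19.

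Log2(ratio + 0.01) less the median of all values was fitted with limma 3.58.1 (R 4.3.3), intercept only, over all 8121 genes, with Benjamini-Hochberg adjustment at 0.05. Total depth per library cannot be read from these tables, but the paper reports unequal numbers of mapped RPF reads for the replicates. Member CDSs held 447 to 31853 recovered in-frame reads, and such counts carry counting error. In 31 transcripts, none a member, lists were broken over lines and rejoined with the value at the break missing. Transcripts were matched to GENCODE 44 on GRCh37 by symbol and CDS length (8742 of 9570; 95 members); POLR2A, POLR3C and TAF1 were not matched. Sequence shared with other genes was counted over 28-base stretches. Scripts were tested on simulated data.

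Members and lists were chosen with earlier results of these data known. Named genes were the highest and lowest in efficiency of each list, paralogs, catalytic subunits, and the 3 extreme members in each occupancy measure; other members were named after their values were seen. 1 member is counted in its groups but not reported here by itself. Alternatives covered pseudocount, filter, reference, replicate block, each replicate left out, windows and codons next to start and stop.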

Additional observations from a re-analysis of the deposited data

How the results depend on the processing

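Leaving out each replicate in turn gave 45 to 47 members above the median in translational efficiency and 30 to 32 below it. The replicate block, which removes each replicate's own median, gave 48 and 32: GTF2H3 passed the test and TAF6L no longer did. The ratios are formed within a replicate, so the pairing of RPF and total RNA is already in the values. With a replicate left out, POLR1E lost its call each time, POLR1A and TAF6L without replicate 1 or 3, GTF2F1 and TAF11 without replicate 2 or 3, while GTF2H3 and MED26 gained one without replicate 2. Counting only genes at least 1.5-fold from the median left 40 above (46.0%; 35.2% of all genes) and 21 below (24.1%; 33.9%). Measured against the mean of the log2 values, which lies 0.17 above their median, 43 were above and 35 below, and POLR2G (−0.12), POLR3B (−0.069) and TAF2 (−0.10) fell on the other side without passing the test, while MED9, POLR1A, POLR3G and TAF11 no longer passed. Of 774 values for single genes, 731 kept their direction and side of the threshold, 35 no longer passed, 5 newly passed and 3 changed sign.

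With windows of 50 codons, 22 members were heavy at the end of the CDS instead of 14, and 22 at the start instead of 24 (28.6% of 77 each; 28.5% and 23.1% of all transcripts). Among CDSs of 200 codons or more, 23 of 73 members (31.5%) and 41.4% of all transcripts had a codon with over 5% of the occupancy. Over the last 17 codons of the 5′UTR alone, 30 of 80 members (37.5%) and 31.8% of all transcripts were above 10% of the CDS level. The median codon gave a median occupancy of 0.0143 in place of 0.0546. An alternative added after seeing the data left out the 10 members with over 25% shared sequence: 42 were above and 32 below the median, and the counts for the occupancy measures became 22, 14, 40 and 16. The causes were not tested. The thinnest profiles (447 reads in MED20, 499 in TAF1C) limit what single codons can show.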
